A study of Mus musculus with 2 samples.

Results

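Cytosolic ribosomal protein genes encode the proteins that, with the ribosomal RNAs, build the 2 subunits of the cytoplasmic ribosome. They were taken as all gene symbols made of Rpl, Rps, Rplp or Rpsa and a number or letter ending, without the Rps6k kinases and without pseudogene symbols, among probe sets annotated to a single symbol. The rule found 50 genes read by 106 probe sets, of 18193 genes and 45037 probe sets in all. By symbol, 26 of the 50 are Rpl or Rplp genes, counted with the large subunit, and 24 are Rps genes or Rpsa, counted with the small subunit. The gene table lists 49 of them as protein coding and Rps4l as a transcribed pseudogene. Of 89 protein-coding symbols in the table that meet the rule, 40 have no single-symbol probe set, among them Rpl5, Rpl10 and Rps27a, and are not analysed here. Rps19bp1 matches the rule by its symbol but encodes a protein that binds Rps19 and is no part of the ribosome. Both Rps19bp1 and Rps4l are counted among the 24.

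RNA from 2 lines of E14 cells, a mouse embryonic stem (ES) cell, was measured on arrays, with 1 array for each line (clone 2 and clone 1). Both clones overexpress Klf5, a zinc finger transcription factor that helps ES cells to self-renew, and both were kept undifferentiated in ES medium with 15% fetal bovine serum and LIF (leukaemia inhibitory factor). Each line is 1 clone, and the sources used here do not name the promoter that drives Klf5. The study compared these lines with wild-type clones that are not analysed here, so the values below describe Klf5-overexpressing cells and the difference between their clones, not an effect of Klf5.

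Most ribosomal proteins are present in a single copy per ribosome, and their mRNAs are among the most abundant of growing cells. Most of these mRNAs begin with a C followed by a run of pyrimidines, the terminal oligopyrimidine (TOP) tract, through which mTOR signalling and the protein Larp1 control their translation. The genes have left many processed pseudogenes in mammalian genomes, and array probes can read several such copies.

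The annotated starts of the genes were read from RefSeq promoters of build GRCm38.p6, which matched 44 of the 50 genes and gave 52 starts. A TOP-like start, a C at the first transcribed base followed by at least 4 bases that are C or T, stood at 8 of the 52 starts (15.4%). Among all protein-coding starts of the table it stood at 469 of 21263 (2.21%). These 8 are shown since the tract is the feature by which this gene class is known. The line gives 20 bases before the start and 10 bases from it, and the capitals mark the tract, which reaches the window's edge in Rpl35 and Rps10.
Rpl14 (chr9:120571497-120571526, plus strand): cggcagggcgggccctctctCTTCTCgctg
Rpl35 (chr2:39005122-39005151, minus strand): gaagtcggccccgccctttcCTCTTTCTCT
Rpl38 (chr11:114668560-114668589, plus strand): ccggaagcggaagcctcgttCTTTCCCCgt
Rplp2 (chr7:141447631-141447660, plus strand): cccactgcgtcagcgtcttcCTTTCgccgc
Rps10 (chr17:27635235-27635264, minus strand): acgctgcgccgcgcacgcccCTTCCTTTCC
Rps18 (chr17:33955656-33955685, minus strand): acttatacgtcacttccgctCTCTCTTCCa
Rps27 (chr3:90213639-90213668, minus strand): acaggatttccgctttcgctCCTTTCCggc
Rps6 (chr4:86857358-86857387, minus strand): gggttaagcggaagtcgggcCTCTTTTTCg
Within 5 bases of the annotated start, such a tract was found at 40.4% of the members' starts and at 18.6% of protein-coding starts, so the count depends on how exactly the start is annotated.

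The motif CCGGAAG, the core bound by the ETS factor GABP, was searched in the window from 250 bases before to 50 bases after the start. It was present at 21 of 52 starts (40.4%), and at 11.6% of protein-coding starts. The 4 examples in which it ends nearest before the start are shown, with the motif in capitals. In Rps7 it is read on the opposite strand.
Rps3a1 (chr3:86142669-86142698, minus strand): agtgtcgcgagattcttaaagCCGGAAGgg
Rps7 (chr12:28635954-28635983, minus strand): actcttttcagaagagCTTCCGGtttccac
Rpl38 (chr11:114668549-114668578, plus strand): gggttaaccgtCCGGAAGcggaagcctcgt
Rpl37 (chr15:5116579-5116608, plus strand): accaagacccgCCGGAAGtagtttcctggg
The motif of YY1, AAGATGGC, was at 4 starts (7.69%, against 3.05% of protein-coding starts). The GC box GGGCGG, which Sp and Klf factors can bind, was at 53.8% of the members' starts and 46.2% of protein-coding starts. The CACCC box CCCCACCC, another Klf-type motif, was at 7.69% and 11.0%, and TATAAA at 11.5% and 12.6%. All motifs were searched on both strands, none of these motifs contains another, and a match is a run of letters and not a measured binding site.

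**Figure D1:**
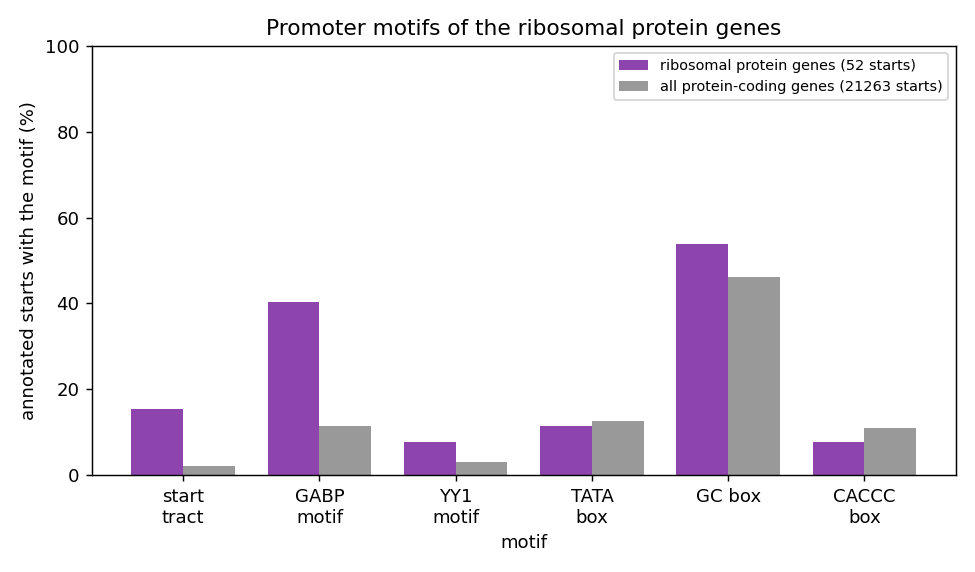
Share of annotated starts (%) that hold each motif, for the 52 starts of ribosomal protein genes beside the 21263 starts of all protein-coding genes. The start tract (15.4% and 2.21%) and the GABP motif (40.4% and 11.6%) stand higher in ribosomal protein genes, while the GC box, TATA box and CACCC box lie close to all genes.

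Klf5 itself read 12.25 in clone 2 and 11.61 in clone 1 by its brightest probe set (11.93 ± 0.45, SD, n = 2), on the deposited log2 scale. Another of its probe sets read 7.26 in clone 2 and 6.97 in clone 1. The last was below background (4.77 in clone 2 and 4.81 in clone 1). Without wild-type arrays these levels do not check the overexpression. As a check on the cells, 9 pluripotency markers were read, such as Pou5f1 and Nanog, and all were above background in both clones. Of 8 fibroblast markers, which could come from feeder cells, 2 were above background (Thy1 and Pdgfrb), and the collagens Col1a1 and Col3a1 were not. A gene was called above background where its signal passed the 95th percentile of 34 probe sets of 26 tissue-restricted genes, 6.07 in clone 2 and 6.30 in clone 1. Where several probe sets read a gene, the brightest stands for it. Signals of different probe sets do not rank genes by abundance, because probes differ in how strongly they bind.

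Ribosomal protein probe sets were bright in both clones. Of the 50 genes, 48 were above background in both, where 51.8% of all 18193 genes were. The median signal of the 48 genes was 13.65 in clone 2 and 13.66 in clone 1, and 37 of them had a mean of 12 or more, where the array holds 350 genes in all. The brightness rests largely on probe sets named _a_at, _s_at or _x_at, which match several transcripts or genes. Without them 27 members remain, 21 of them above background in both clones and Rps10 in clone 2 alone. The median signal of those above it in at least 1 clone was 9.54. Below background in both clones by their brightest probe sets were Rpl3l and Rps16. Rpl3l, a paralog of Rpl3 found in striated muscle, read 4.34 in clone 2 and 4.74 in clone 1. Of 5 striated muscle markers, Myh7 is one of the genes that set the background. Of the others, Myh6, Actn2 and Tnnt2 were below background in both clones, and Ckm (6.13 in clone 2 and 6.21 in clone 1) passed the level of clone 2 alone. Rps16, a small subunit protein, read 3.23 in clone 2 and 3.12 in clone 1, and its 1 probe set with a single symbol is the only one used here.

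**Figure D2:**
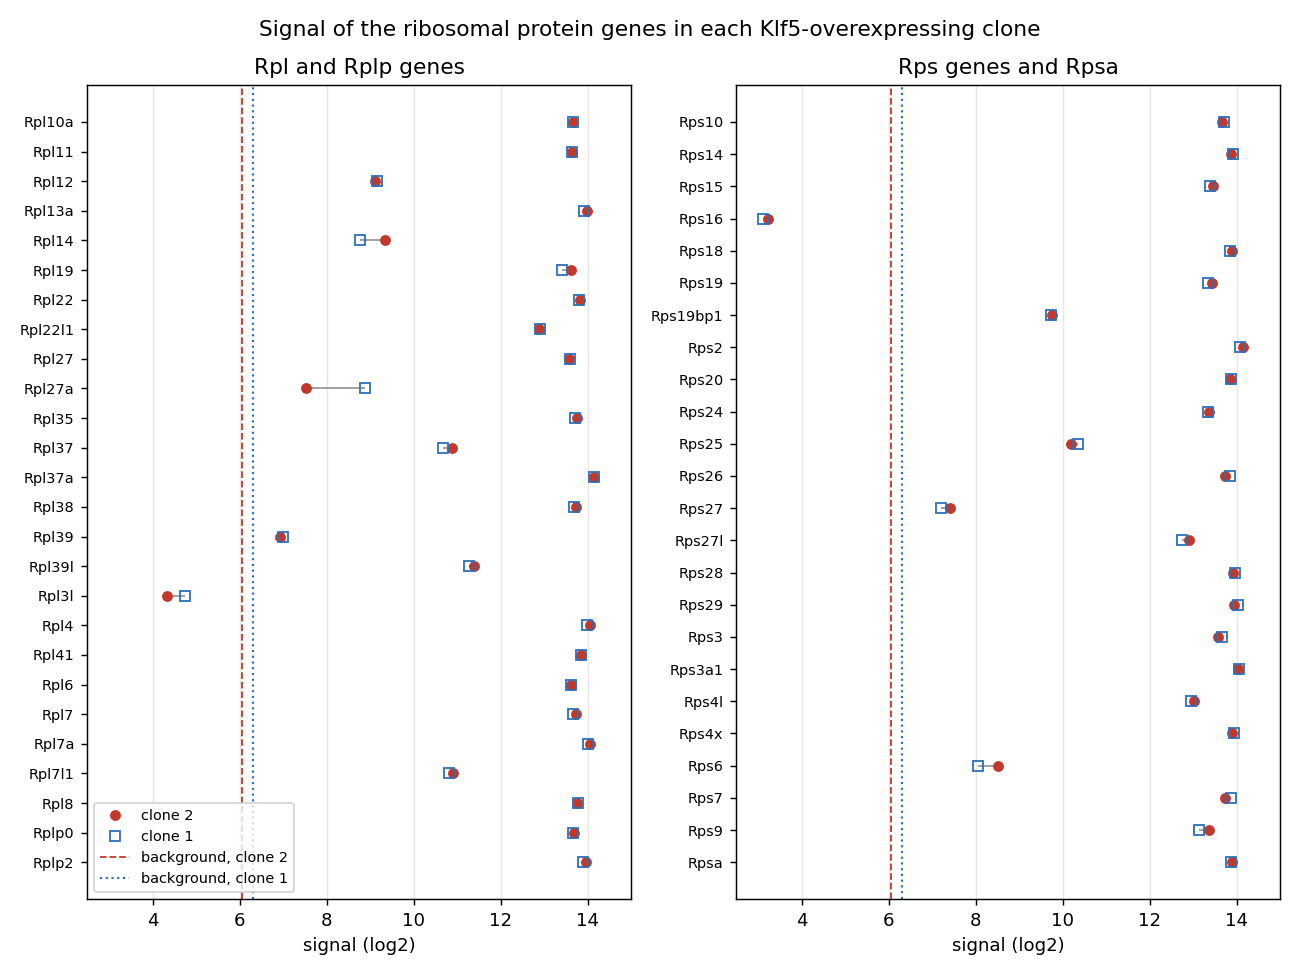
Deposited log2 signal (x axis) of the brightest probe set of each of the 50 genes, clone 2 as filled circles and clone 1 as open squares, with the background level of each array as a vertical line. Most genes lie between 12.7 and 14.1 with overlapping symbols, Rpl27a, Rpl14 and Rps6 have separated symbols, and Rpl3l and Rps16 lie under both lines.

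The 2 clones had nearly the same ribosomal protein signals. Each difference is a log2 value, that of clone 2 less that of clone 1. With 1 array per clone there is no test, and sizes are read against all genes. The median difference of the 48 genes was 0.015, and that of the 10109 genes that passed background in either clone was 0.08. Of the 48, 27 were higher in clone 2, 18 were lower and 3 were equal, while 62.8% of all genes were higher. The members' median stayed above 0 under both other scalings, while its order against the median of all genes turned under one of them. With the columns moved to a common median, which shifts every gene alike, 43 of the 48 were higher (89.6%) and 4 lower, against 76.5% of all genes higher (median 0.105, all genes 0.17). After quantile normalization 25 were higher (52.1%) and 19 lower, against 48.2% of all genes higher (median 0.006, all genes -0.005).

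A clone exceeded the other by 25% or more in 3 of the 48 genes, Rpl27a, Rpl14 and Rps6, against 22.4% of all genes above background in either clone and 20.1% of the 9429 above it in both, as all 48 are (a comparison chosen after the data were seen). Of the 3, Rpl14 and Rps6 were higher in clone 2, as were 17.5% of all genes, and Rpl27a was lower, as were 4.91%. A 2-fold difference was found in Rpl27a alone, against 0.524% of all genes. By their brightest probe sets, the other 45 genes lay between -0.17 and 0.23, at most 1.17-fold apart. Dimmer probe sets of Rpl37a, Rps10, Rps24 and Rps9 differed by 25% or more (-0.35, 0.37, 0.50 and 0.64). Differences under 0.1 were seen in 36 of the 48 (75.0%), and in 29.6% of all genes. Without the _a_at, _s_at and _x_at probe sets only 21 members were above background in both clones. Then 4 members differed by 25%: Rpl27a, Rpl14, Rps6 and also Rps10. By its remaining probe set Rps10 passed background in clone 2 alone (6.31 in clone 2 and 5.94 in clone 1), so it is not among the 21.

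Bright genes differed less between the clones than dim ones. The SD of the difference was 0.274 over all genes above background and 0.143 over the 350 genes with a mean of 12 or more. Of the 37 ribosomal protein genes in this range 0 differed by 25%, against 3.14% of the 350, and 20 were higher in clone 2 (54.1%), against 55.1%. Over the 37 genes the SD was 0.076, and over the 313 other genes of that range 0.149. Of the 37, 32 (86.5%) differed by less than 0.1, and of the 313 others, 160 (51.1%). The ribosomal protein genes were brighter within the range too, with a median signal of 13.77 against 12.50 for the others. Their highest signal, 14.13 in each clone, lay near the highest on the arrays, 14.38 in clone 2 and 14.32 in clone 1. Whether the scale is compressed there, and whether the narrower spread comes from brightness, was not tested.

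**Figure D3:**
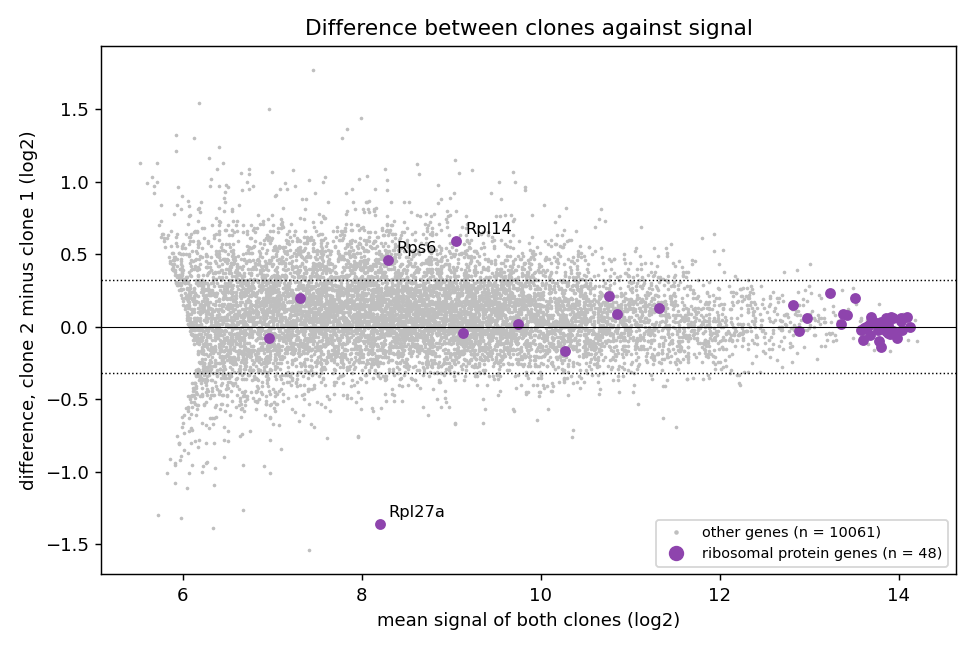
Difference between the clones (clone 2 minus clone 1, log2) against the mean signal of both clones (log2), for 48 ribosomal protein genes (large points) and 10061 other genes above background (small points). The dotted lines mark a difference of 25%. Of the ribosomal protein genes, Rpl27a, Rpl14 and Rps6, all dimmer than a mean of 12, lie past them.

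Rpl27a, a large subunit protein mutated in the ataxic sooty foot mouse, read 7.52 in clone 2 and 8.88 in clone 1. This is a difference of -1.36, or 2.57-fold lower in clone 2, and 14 genes in all were lower 2-fold or more (0.138%). That count includes genes that passed background in 1 clone alone, and of the 9429 genes above it in both clones, 4 were (0.0424%). Its second probe set was below background (2.94 in clone 2 and 3.55 in clone 1). Rpl14, a large subunit protein, read 9.35 in clone 2 and 8.76 in clone 1 by its only probe set, 1.51-fold higher in clone 2. Rps6, the small subunit protein that S6 kinases phosphorylate, read 8.52 in clone 2 and 8.06 in clone 1, 1.38-fold higher in clone 2. The second Rps6 probe set, below background, went the other way (3.17 in clone 2 and 3.66 in clone 1).

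These 3 genes belong to 11 members above background whose brightest single-symbol probe set had a mean under 12. Of the 11, 8 were also listed on a brighter probe set (mean of 12 or more) that names several symbols and is therefore assigned to no gene here: Rpl12, Rpl14, Rpl27a, Rpl37, Rpl39, Rps25, Rps27 and Rps6. The 10 several-symbol probe sets of that brightness that list Rpl27a, Rpl14 or Rps6 read between 12.87 and 14.18 in clone 2 and between 12.89 and 14.13 in clone 1. Their differences ran from -0.13 to 0.08, with a median of -0.045. Of these 10 probe sets 0 differed by 25%, where 3.14% of the 350 genes with a mean of 12 or more did. With 10 probe sets, 0 cannot be told from that share. What share of their signal comes from each listed gene or pseudogene is not known.

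Among the large subunit genes, 25 of 26 were above background in both clones, where 51.8% of all genes were. Their median difference was 0.03, with 15 higher in clone 2, 7 lower and 3 equal, while 62.8% of all genes were higher. The acidic stalk, which recruits translation factors to the ribosome, was read by Rplp0 (13.67 in clone 2 and 13.66 in clone 1) and Rplp2 (13.95 in clone 2 and 13.88 in clone 1). Rpl11, which binds Mdm2 when ribosome assembly fails, read 13.63 in both clones. Rpl38, whose loss in mice changes the translation of Hox mRNAs, was 13.72 in clone 2 and 13.69 in clone 1. Rpl13a, also known as a silencer of inflammatory mRNAs, was 13.97 in clone 2 and 13.91 in clone 1. Rpl41, the shortest ribosomal protein, was 13.84 in clone 2 and 13.83 in clone 1. Rpl19 had the largest difference among the bright large subunit genes, 13.61 in clone 2 and 13.41 in clone 1, or 1.15-fold. Rpl37 read 10.87 in clone 2 and 10.66 in clone 1. The 18 large subunit genes with a mean of 12 or more differed by -0.03 to 0.20.

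Among the genes counted with the small subunit by symbol, Rps19bp1 and Rps4l included, 23 of 24 were above background in both clones, where 51.8% of all genes were. Their median difference was 0.01, with 12 higher in clone 2 and 11 lower, while 62.8% of all genes were higher. Rpsa, the laminin receptor homolog of the small subunit, was 13.88 in clone 2 and 13.87 in clone 1. Rps19, the gene most often mutated in Diamond-Blackfan anaemia, was 13.42 in clone 2 and 13.33 in clone 1. Another anaemia gene, Rps24, was 13.36 in clone 2 and 13.34 in clone 1. Rps20, mutated in mice with dark skin, was 13.84 in clone 2 and 13.87 in clone 1. Rps9 had the largest difference among bright genes, 13.35 in clone 2 and 13.12 in clone 1, or 1.17-fold. On the lower side stood Rps7 (13.73 in clone 2 and 13.87 in clone 1) and Rps26 (13.73 in clone 2 and 13.83 in clone 1). Rps3, which also has a role in DNA repair, was 13.56 in clone 2 and 13.65 in clone 1, Rps29 was 13.94 in clone 2 and 14.02 in clone 1, and Rps10 was 13.65 in clone 2 and 13.71 in clone 1. Rps25, at a lower signal, was 10.19 in clone 2 and 10.36 in clone 1. The 19 genes of this count with a mean of 12 or more, Rps4l among them, differed by -0.14 to 0.23.

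Several members have a paralog or an annotated copy, and some such paralogs can take their partner's place in the ribosome of some tissues. Rpl22l1, which can replace Rpl22, was 12.87 in clone 2 and 12.90 in clone 1, while Rpl22 was 13.82 in clone 2 and 13.79 in clone 1. Rpl39l, a paralog of Rpl39 known from male germ cells, was 11.39 in clone 2 and 11.26 in clone 1, well above background. Of 5 testis markers, Prm1, Prm2 and Tnp1 are among the genes that set the background. The other two were below it, Tnp2 at 3.21 in clone 2 and 3.41 in clone 1, and Akap4 at 5.41 in clone 2 and 4.85 in clone 1. Prm1 read 6.53 in clone 2 and 6.63 in clone 1, above background in both. X-linked Rpl39 read 6.92 in clone 2 and 7.00 in clone 1 by its only single-symbol probe set, close above background. Rps27l, a p53 target and paralog of Rps27, was 12.89 in clone 2 and 12.74 in clone 1, and Rps27 was 7.41 in clone 2 and 7.21 in clone 1. Rpl7l1 was 10.90 in clone 2 and 10.81 in clone 1, beside Rpl7 at 13.73 in clone 2 and 13.66 in clone 1. Rps4l, the copy annotated as a pseudogene on chromosome 6, read 13.01 in clone 2 and 12.95 in clone 1, and the X-linked Rps4x 13.88 in clone 2 and 13.93 in clone 1. Reads of one copy by the probes of another were not tested, so these signals do not give the ratio of a paralog to its partner.

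Genes with several probe sets gave a look at how far a difference repeats within 1 array pair. Of 20 members with at least 2 probe sets above background in both clones, 14 had differences less than 0.2 apart, and the median range was 0.145. In 7 genes every such probe set was higher in clone 2, in 6 every one was lower, and in 4 at least 1 was at 0 and the others went one way. In 3 genes (Rpl41, Rps10 and Rps27l) the probe sets went in both directions, with differences from -0.11 to 0.01, -0.09 to 0.15 and -0.04 to 0.15. All 3 Rps9 probe sets were higher in clone 2, by 0.14 to 0.64, and all 5 Rps24 probe sets above background were, by 0.02 to 0.50. Rpl27, Rps3, Rps7, Rps14, Rps28 and Rps29 were lower in clone 2 in every probe set above background, with differences of -0.19 to -0.01. The probe sets of a gene share 1 RNA sample and 1 array per clone, so they are no replicates of a clone.

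**Figure D4:**
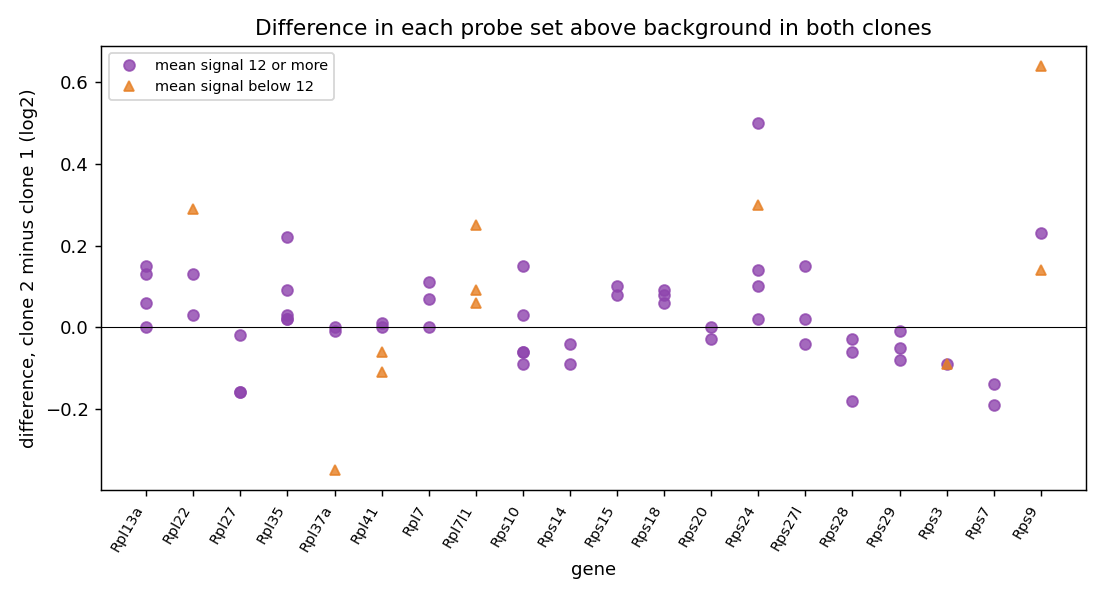
Difference between the clones (clone 2 minus clone 1, log2) in each probe set above background in both clones, for the 20 genes with at least 2 such probe sets, bright ones (mean of 12 or more) as circles and dimmer ones as triangles. The ranges run from 0.00 in Rps3 to 0.50 in Rps9, where a dimmer probe set lies farthest out.

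Over all probe sets of the 50 genes, 91 of 106 were above background in both clones, 1 in clone 2 alone and 14 in neither. The 70 with a mean of 12 or more had differences with an SD of 0.107, and the 22 dimmer ones above background an SD of 0.403. Names that mark probes matching several transcripts of a gene or several genes (_a_at, _s_at and _x_at) made up 71 of the 106, and 63 of the 70 bright ones. The shares of all probe sets on the arrays that pass background or carry such names were not counted.

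The 8 genes with a TOP-like start had a median difference of 0.065 (range -0.06 to 0.59). Of these, 7 of 8 were higher in clone 2, where 62.8% of all genes were. By probe sets with a mean under 12, Rps27, Rps6 and Rpl14 differed by 0.20, 0.46 and 0.59, and the others by -0.06 to 0.07. The 34 other members above background with a promoter had a median of 0.01 (range -1.36 to 0.23), with 18 higher. After the columns were moved to a common median these medians were 0.155 and 0.10. Then 8 of 8 and 29 of 34 were higher, against 76.5% of all genes. After quantile normalization the medians were 0.07 and 0.00, with 7 of 8 and 16 of 34 higher, against 48.2% of all genes. Genes with and without the GABP motif had medians of 0.01 and 0.02 (21 genes each). With and without the GC box the medians were both 0.02, over 25 and 17 genes. The 2 genes above background with the CACCC box had a median of -0.025 (range -0.04 to -0.01), and the 40 without it 0.025. A class of 2 genes is too small to compare. For the other motifs, the differences within each class are wider than the gap between the medians. No test was made.

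Genes that make or use ribosomes were read beside the members, from lists chosen by function. All 40 ribosome biogenesis genes were above background in both clones, where 51.8% of all genes were. Their median difference was 0.035, and 22 of the 40 were higher in clone 2, against 62.8% of all genes. Of these, 5 differed by 25% or more, all higher in clone 2, as were 17.5% of all genes. They were Tcof1, which promotes ribosomal RNA transcription (9.48 in clone 2 and 8.85 in clone 1), Dkc1, the pseudouridine synthase of box H/ACA particles (12.11 in clone 2 and 11.50 in clone 1), and Ubtf, Polr1b and Ddx21. Npm1, the nucleolar chaperone, was 13.64 in clone 2 and 13.80 in clone 1.

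The 12 measured genes listed for their TOP mRNAs were translation factors together with Hnrnpa1, Tpt1 and Npm1. Npm1 was counted among the biogenesis genes too. The 12 had a median difference of 0.055, and 1 of them, Eif4b, passed 25% (12.36 in clone 2 and 12.03 in clone 1), where 22.4% of all genes did. Among them, Eef1a1, which brings aminoacyl-tRNA to the ribosome, was 14.15 in clone 2 and 14.25 in clone 1. All 14 measured mTOR and S6 kinase regulators were above background in both clones (51.8% of all genes were), with a median difference of 0.04. Rictor, a subunit of mTOR complex 2, was the only one past 25% (8.16 in clone 2 and 7.57 in clone 1), again against 22.4% of all genes, and Larp1 was 10.64 in clone 2 and 10.36 in clone 1. Of the ribosomal proteins with other symbols, Fau, the precursor of the small subunit protein eS30, was measured by a single-symbol probe set and read 12.34 in both clones.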

How the data were processed

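Per the submitters' processing notes, the arrays were processed with Transcriptome Analysis Console; how background was corrected and signals normalized is not given in the sources used. The values the authors deposited are log2 signals with 2 decimals, a column per array; their base is inferred from their range, 2.21 to 14.38. Without probe intensities no detection call was possible, and having 2 arrays limits the precision.

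Probe sets were named from the platform annotation: 34945 had 1 symbol, 932 several and 9160 none, and only the first kind named genes. All 50 members matched the gene table of GRCm38.p6. Fixed differences of 25% (the brighter clone over the dimmer) and of 2-fold stood in for a test. Calculations used Python 3.11.15 with pandas 2.3.3 and numpy 2.4.6. The 2-fold count and both normalizations were tried on simulated data, with less noise than the clones' differences show. The 25% count, the direction counts and the background call were not tried so.

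Genes named with values were the 8 largest differences in each direction, paralogs, members with known special roles, members not above background, and members whose probe sets disagreed. The members and lists were chosen with earlier results of these data known. Alternatives were 2 normalizations, 3 background levels, no filter, and other choices of probe set. Whether the clones were grown and hybridised together is not given.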

Additional observations from a re-analysis of the deposited data

Results flagged for a closer look

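Signal was also found in probe sets that the comparisons do not use. Of 110 probe sets that list a ribosomal protein symbol among several symbols, 99 were above background in both clones, 1 in a single clone and 10 in neither. The share of all probe sets above background was not counted. The 110 list 46 symbols that meet the naming rule, 31 of which have no single-symbol probe set. The 79 with a mean of 12 or more had differences (clone 2 minus clone 1) of -0.20 to 0.35, with a median of 0.02 and an SD of 0.109. Of the 79, 1 differed by 25%, against 3.14% of the 350 genes in that range.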

How the results depend on the processing

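The count of 48 genes above background in both clones stayed at 48 under both normalizations and all 3 other background levels, and each clone alone gave 48 to 48. The mean of a gene's probe sets gave 46. Without the _x_at, _s_at and _a_at probe sets 27 members were left, 21 of them above background in both clones and Rps10 in clone 2 alone. Of those above it in at least 1 clone, 15 were higher in clone 2 and the median signal was 9.54, against 13.66. Fewer genes and dimmer probe sets are built into that setting. Averaging all probe sets of a gene lowered the median signal to 12.93, and each clone alone gave 13.65 to 13.66. Moving the columns to a common median made 43 genes higher in clone 2, against 27, as it raised the share of all genes from 62.8% to 76.5%. The median difference ran from 0.006 to 0.105. In the main setting 3 of the 48 genes differed by 25%. Without the suffixed probe sets 4 members did, Rps10 together with these 3. Only 21 members were then above background in both clones, and Rps10, close to background, passed it in clone 2 alone. The share thus depends on the suffixed probe sets. Across settings the count was 2 to 4, and 0 among members with a mean of 12 or more (chosen after the data were seen). Leaving out Rps19bp1 and Rps4l, also chosen then, changed no count by over 1.5 times. Rps6 turned to -0.015 with the mean of its probe sets, 1 of which is below background. Rpl27a was -1.49 after quantile normalization and -0.985 with the mean of its probe sets. Rps10 (-0.06) was 0.0567 with that mean and 0.37 without the suffixed probe sets, which also gave 0.30 for Rps24 (0.02), and the mean gave 0.25 for Rpsa (0.01). No paired analysis was possible because the 2 clones form 1 group.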
